A study of Bos taurus with 2 samples.

Results

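Fatty acid and triglyceride synthesis was followed through 10 named genes: the regulator SREBF1, the carboxylases ACACA and ACACB, fatty acid synthase (FASN), the desaturase SCD, the elongases ELOVL5 and ELOVL6, the phosphatidate phosphatase LPIN1, and the acyltransferases DGAT1 and DGAT2. They were picked by gene name with earlier results of these data known, and 9 of the 10 matched a named row among the 21867 genes of the count matrix. DGAT2 is not analysed here. The cells were cultured satellite cells, the muscle stem cells and their dividing offspring, from the longissimus muscle of 1 male Holstein calf aged 2 weeks, released with pronase and grown for 1 week in growth medium with fetal bovine serum. There was no treatment and no second animal. From the same cells 2 sequencing libraries, here libraries 1 and 2, were made on the 10x Genomics platform, which counts each captured RNA molecule once by its unique molecular identifier (UMI). The spread between the libraries is therefore technical, and no value here describes differences between calves.

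De novo fatty acid synthesis starts when acetyl-CoA carboxylase turns acetyl-CoA into malonyl-CoA, which FASN uses to build palmitate. ELOVL6 lengthens palmitate to stearate, SCD places a double bond in it, and ELOVL5 lengthens mainly polyunsaturated fatty acids. LPIN1 and the DGAT enzymes then carry out the last steps from glycerol phosphate to triglyceride, while SREBF1 encodes a membrane-bound transcription factor that is released by cleavage and switches on many lipogenic genes. Dividing cells use this pathway for membranes and adipocytes use it for fat storage, and within muscle fibro-adipogenic progenitors are known as a source of intramuscular adipocytes.

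Library 1 held 145631299 UMIs in 9939 cells, with a median of 14626 UMIs per cell, and library 2 held 137818568 UMIs in 9157 cells, with a median of 15206. The 15 clusters are those of the authors. Median depth was 5398.5 UMIs per cell or more in 11 clusters and only 1389, 1631, 2513.5 and 647 UMIs in clusters 7, 13, 14 and 15, called shallow clusters here. The level of a gene is its number of UMIs per 10000 UMIs in a cluster, given for both libraries or as the mean ± SD of the 2 libraries. On this scale the median log2 fold change of all genes tested, cluster 7 against all other cells, was 0.52. Levels in cluster 7 therefore include a shift shared with other genes. The label of satellite cells was checked against markers. Satellite cell and myoblast markers summed to between 1.60 per 10000 in cluster 9 and 26.8 in cluster 12, where DES alone stood at 22.3. The satellite cell markers PAX7 and PAX3 were scarce, with 176 and 316 UMIs in all cells. PAX7 had a level of 0 in cluster 12, and PAX3 was highest in cluster 8, at 0.0280. Myocyte markers were highest in cluster 12, at 38.7 per 10000. PDGFRA, the usual surface marker of fibro-adipogenic progenitors, was highest in cluster 9, at 1.58 ± 0.074, with 1.48 in cluster 7. PPARG, the central regulator of adipogenesis, was also highest in cluster 9, at 0.288 ± 0.017. DCN, a matrix proteoglycan of fibroblasts and the most abundant of the fibro-adipogenic markers, was highest in cluster 8. The list of these markers therefore summed to 15.3 per 10000 in cluster 8 and 11.2 in clusters 7 and 9. The sum was 10.1 and 10.2 in clusters 4 and 5. In cluster 7 the libraries differed, with 8.53 in library 1 and 13.9 in library 2. Of the mature adipocyte markers, the hormone genes ADIPOQ and LEP had 3 and 0 UMIs in all 19096 cells, CIDEC had 18, PLIN1 had 140 and LPL had 1324. Their sum ran from 0.0153 per 10000 in cluster 12 to 0.175 in cluster 7, where it was 0.112 in library 1 and 0.238 in library 2, and it was 0.0796 in cluster 9.

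All 9 genes were expressed at low levels. FASN had 23920 UMIs and was seen in 58.3% of cells, ACACB had 18382 UMIs, ELOVL6 had 14990, SCD had 13999 and ELOVL5 had 7342. DGAT1 had 4758 UMIs, SREBF1 had 2802, ACACA had 1044 and LPIN1 had 201, in 1.04% of cells. The last gene can therefore be compared only where clusters are large. No order between genes is read from these totals, because reads from the 3′ end depend on each gene's annotated end.

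SREBF1, the regulator, had the widest range of the 9 genes among the deep clusters. Its level was 0.625 in library 1 and 0.566 in library 2 in cluster 7, and 0.285 and 0.263 in cluster 9. In the other deep clusters it lay between 0.0331 ± 0.0038 in cluster 12 and 0.141 ± 0.0046 in cluster 10. The shallow clusters 13, 15 and 14 stood at 0.200 ± 0.014, 0.145 ± 0.091 and 0.126 ± 0.046, on only 20, 3 and 17 UMIs. Both libraries placed cluster 7 above cluster 9 and cluster 9 above every other deep cluster. Among the 11 deep clusters the highest level was 8.30 times the lowest. Cluster 9 held 5.66% of the cells and 9.31% of the UMIs but 25.9% of the SREBF1 UMIs (exact 95% binomial interval 24.3 to 27.6%, which covers counting error only).

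The carboxylases ACACA and ACACB had different patterns. ACACA, the cytosolic enzyme that feeds FASN, was highest in cluster 9, at 0.0732 in library 1 and 0.0607 in library 2, and next came cluster 7, at 0.0558 and 0.0738. These ranges overlapped, so the order of both clusters was not resolved. ACACB, the enzyme at the mitochondrial membrane whose product limits fatty acid import for oxidation, was highest in cluster 6, at 1.40 and 1.29, and in cluster 11, at 1.33 and 1.27. Cluster 5 followed at 1.04 ± 0.022 and cluster 9 at 0.727 ± 0.0067, while clusters 3 and 12 were lowest, at 0.331 ± 0.016 and 0.303 ± 0.067. The top pair was not separated, but cluster 5 was below both and above cluster 9 in both libraries.

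FASN, which carries out all the steps to palmitate, was highest in cluster 7, at 2.28 in library 1 and 2.21 in library 2, above every other cluster in both. Clusters 13, 11, 10 and 9 followed with 1.37 ± 0.33, 1.29 ± 0.044, 1.28 ± 0.055 and 1.19 ± 0.072, and their library ranges overlapped from each one to the next. The lowest levels were 0.468 ± 0.032 in cluster 12 and 0.426 ± 0.013 in cluster 8. SCD had a partly like order, with 0.970 and 1.198 in cluster 7 and 1.12 and 0.735 in cluster 13, whose ranges overlapped. Next came 0.805 ± 0.042 in cluster 10 and 0.702 ± 0.0077 in cluster 11, while cluster 9 was lower, at 0.586 ± 0.047. The lowest level was in cluster 8, at 0.197 and 0.205. Cluster 8 was below all others in both libraries for SCD.

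The elongases did not share one order. ELOVL6 was highest in cluster 11, at 1.05 and 1.01, compared with 0.690 and 0.657 in cluster 6, 0.639 and 0.567 in cluster 2, and 0.3122 and 0.3004 in cluster 12. Cluster 11 was above every other deep cluster in both libraries, whereas the range of the shallow cluster 15 overlapped its own. ELOVL5 was highest among deep clusters in cluster 10, at 0.473 and 0.401, followed by cluster 9 at 0.328 and 0.340 and cluster 11 at 0.360 and 0.301. It was lowest in cluster 12, at 0.122 and 0.117.

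At the triglyceride end, DGAT1 was the most even gene, with a 1.58-fold range over the 11 deep clusters, from 0.130 ± 0.0098 in cluster 12 to 0.206 ± 0.0019 in cluster 9. Cluster 7 stood above this range, at 0.535 and 0.476. The shallow clusters 14 and 15 had means below it, 0.119 ± 0.055 and 0.0806 ± 0.114, on only 16 and 2 UMIs. LPIN1 was at most 0.0246 per 10000 in any cluster and library, in cluster 7, where it rested on 5 UMIs. No UMI of LPIN1 was seen in clusters 13, 14 and 15, and none of ACACA in cluster 15. At a limit of 3 counts this allows shares of up to 0.498%, 0.673% and 0.946% of the cells of clusters 13, 14 and 15 with a UMI, which does not limit the cells that express the genes.

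**Figure D1:**
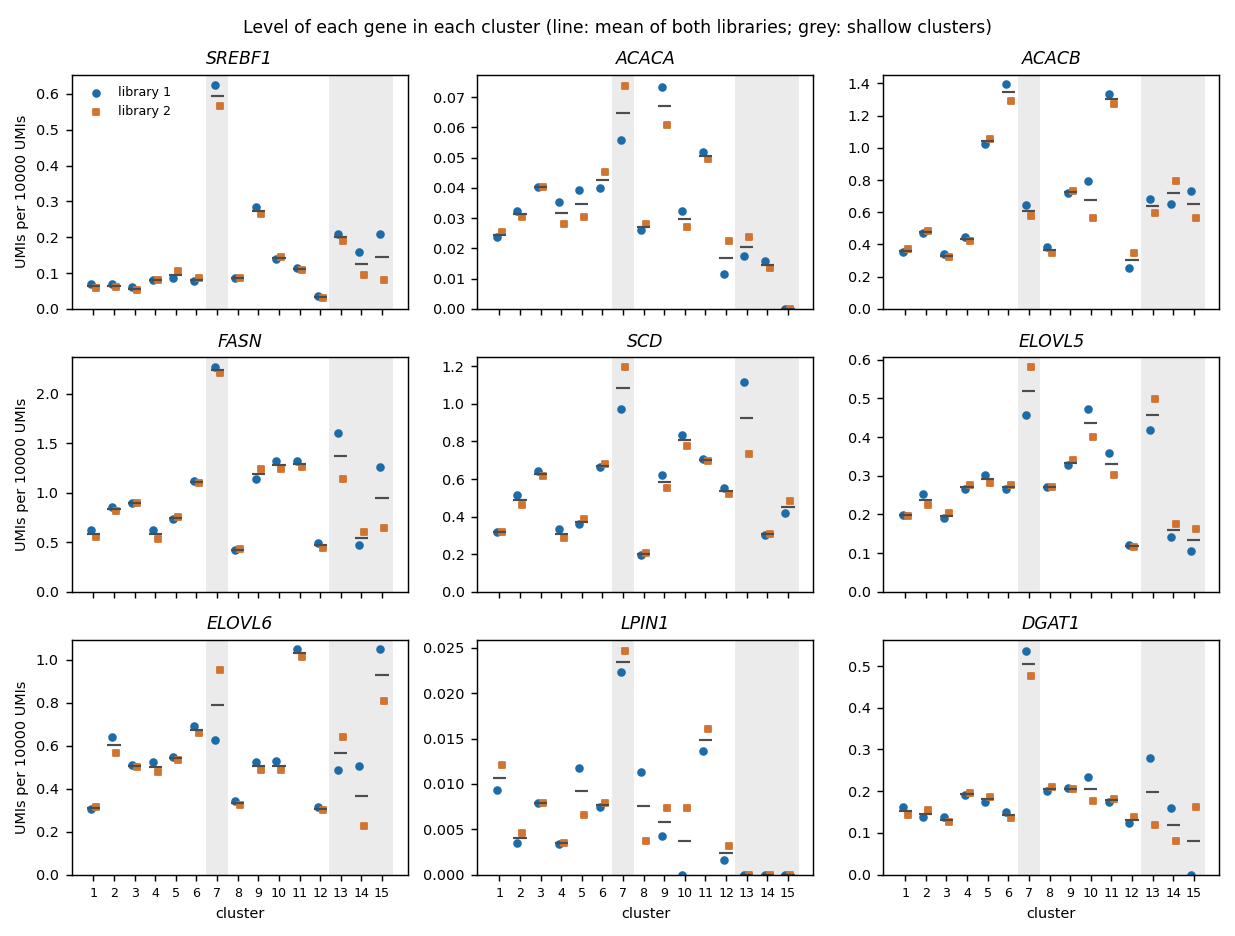
Level of each gene (UMIs per 10000 UMIs, vertical axis from 0, own scale per gene) in the 15 clusters; circles and squares are libraries 1 and 2, lines their mean, and grey bands the shallow clusters 7, 13, 14 and 15. SREBF1 stands high in clusters 7 and 9, ACACB in clusters 5, 6 and 11, and ELOVL6 in cluster 11.

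Each cluster was then tested against all other cells, with edgeR's quasi-likelihood test on UMIs summed per library, 2 sums against 2, and Benjamini-Hochberg adjustment over all genes. Adjusted p-values below come from this test unless another fit is named, with a call at an adjusted p under 0.05. Both sums of a library are paired, and this test left the pairing out. With the library as a block, 14 calls of the set were added and 0 were lost. The clusters had been built from the same counts, so the p-values of genes that shaped the clusters are not independent of them. Over the 15 comparisons, 65 of 135 pairs of gene and cluster were called, 34 higher and 31 lower, and 32.1% of all pairs of gene and cluster tested were called. SCD was called in 12 of 15 clusters, FASN in 11 and ACACB in 10, but LPIN1 in only 2. Scaling by library totals rather than by trimmed means moved the median log2 fold change of all genes (library totals minus trimmed means). The shift was 0.65 in cluster 7, 0.22 in cluster 15 and 0.11 in clusters 10 and 13. It was -0.13 in cluster 3, -0.18 in cluster 12 and -0.51 between clusters 9 and 7. Fold changes there are relative to these shifts.

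**Figure D2:**
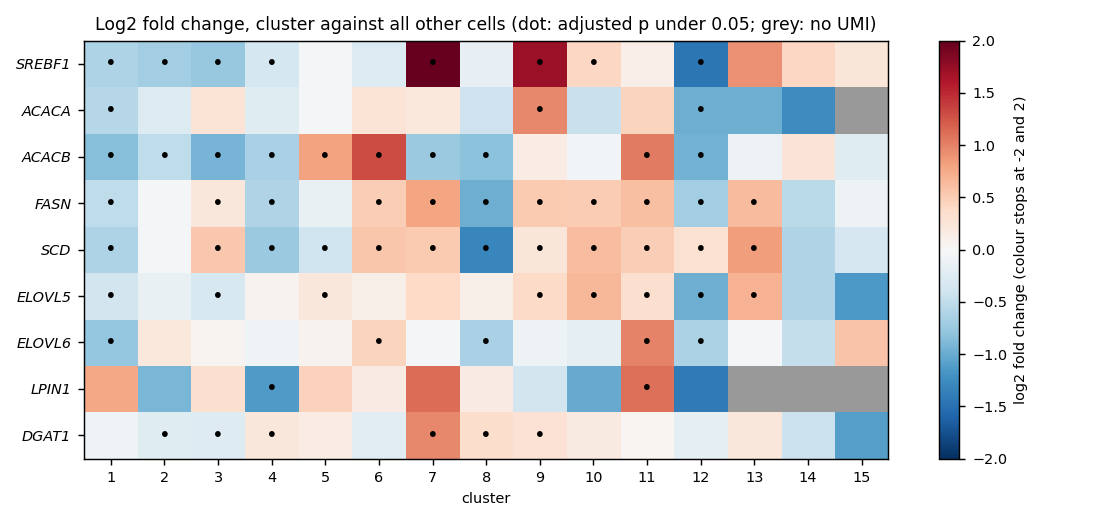
Log2 fold change of each gene (rows) in each cluster against all other cells (columns), colour stopping at -2 and 2; dots mark an adjusted p under 0.05 and grey marks a gene with no UMI in the cluster. Red cells gather in clusters 7, 9 and 11 and blue cells in clusters 1, 8 and 12.

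In cluster 9, with the highest PDGFRA and PPARG levels, 6 of the 9 genes were higher than in all other cells, beside 25.3% of all genes tested, and 0 were lower, beside 27.7%. The 6 were SREBF1, ACACA, FASN, ELOVL5, DGAT1 and SCD. Without the library block, no gene of the set was lower at an unadjusted p under 0.05 in edgeR either (0). None was called lower in DESeq2 (0). With the block ELOVL6 was called lower, at -0.10 on the log2 scale (edgeR adjusted p = 0.0453). The median log2 fold change was 0.29 over the set and -0.04 over all genes tested. SREBF1 differed most, with 0.285 and 0.263 in cluster 9 against 0.0808 and 0.0807 in the other cells, a log2 fold change of 1.73 ± 0.070 (SE; edgeR adjusted p = 1.01e-05). ACACA stood at 0.0732 and 0.0607 against 0.0342 and 0.0332, a log2 fold change of 0.96 ± 0.14 (edgeR adjusted p = 0.00166). For each of these genes both libraries of cluster 9 lay above both sums of the other cells. Cluster 9 also differed from many other cells in cell cycle markers, whose levels summed to 7.15 for S phase and 7.39 for G2/M. Both marker sums were lower in clusters 1, 3, 8 and 12, among others, and higher in clusters 2 and 4. The part of the cell cycle in the result of cluster 9 was not tested.

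The remaining enzymes were higher by less. FASN was 1.14 and 1.24 in cluster 9 and 0.827 and 0.790 elsewhere, a log2 fold change of 0.52 ± 0.064 (edgeR adjusted p = 0.000817). ELOVL5 had a log2 fold change of 0.38 ± 0.058 (edgeR adjusted p = 0.00231), DGAT1 of 0.29 ± 0.062 (edgeR adjusted p = 0.00821) and SCD of 0.24 ± 0.070 (edgeR adjusted p = 0.0276). SCD was no longer called without the filter on low counts (edgeR adjusted p = 0.0772). ACACB had a log2 fold change of 0.15 ± 0.053 (edgeR adjusted p = 0.0546) and was called under 6 of the alternatives, the library as a block among them (edgeR adjusted p = 0.00326). ELOVL6 had a log2 fold change of -0.10 ± 0.066 (edgeR adjusted p = 0.236), which the block also turned into a call (edgeR adjusted p = 0.0453). LPIN1 rested on 15 UMIs in cluster 9. Cluster 9 was also the deepest cluster, with a median of 23011 UMIs per cell, and 13.98% of its cells were marked as possible doublets; without doublets 7 of 9 genes were higher.

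With library totals alone, the median log2 fold change of all genes, cluster 9 against cluster 7, was -0.46. On that scale cluster 7 carried nearly as much PDGFRA as cluster 9. Cluster 7 is shallow, with 1369 UMIs of the 9 genes in all. Markers of other cell types were also higher there than in cluster 9, with sums per 10000 of 7.24 against 0.420 for myocytes, 8.74 against 1.60 for satellite cells and myoblasts, 9.64 against 6.49 for pericytes and smooth muscle, 0.148 against 0.0365 for immune cells and 13.9 against 7.39 for G2/M. Within G2/M, MKI67 and TOP2A were higher in cluster 7, but CDK1 was lower, at 0.363 against 0.393, and CCNB1, at 0.923 against 1.28. The S phase sum was lower in cluster 7, at 5.96 against 7.15. The immune sum was CD68 alone in cluster 7, while in cluster 9 it also held CD14, at 0.0137. Endothelial markers summed to 0.0112 against 0.0189. The part of these markers in the values of cluster 7 below was not tested. Against all other cells 5 of its 9 genes were called, beside 44.7% of all genes. SREBF1 was 1.99 ± 0.13 higher on the log2 scale (edgeR adjusted p = 0.000135), DGAT1 0.96 ± 0.12 (edgeR adjusted p = 0.00125), FASN 0.78 ± 0.088 (edgeR adjusted p = 0.000866) and SCD 0.52 ± 0.13 (edgeR adjusted p = 0.0201; 0.32 without library 2). ACACB was lower by a log2 fold change of -0.74 ± 0.10 (edgeR adjusted p = 0.00205). With library totals alone the ACACB difference was -0.10 and was not called (edgeR adjusted p = 0.523), while that of SREBF1 was 2.64.

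In the direct comparison of both PDGFRA-high clusters, 1 of 9 genes was higher in cluster 9 than in cluster 7, beside 29.9% of all genes, and 3 were lower, beside 26.6%. ACACB was the gene that was higher, with 0.723 and 0.732 in cluster 9 against 0.647 and 0.574 in cluster 7, a log2 fold change of 0.77 ± 0.12 (edgeR adjusted p = 0.00124). DGAT1 was lower, at 0.207 and 0.204 against 0.535 and 0.476, a log2 fold change of -0.78 ± 0.14 (edgeR adjusted p = 0.00297). SREBF1 was lower by -0.60 ± 0.14 on the log2 scale (edgeR adjusted p = 0.00835) and FASN by -0.41 ± 0.10 (edgeR adjusted p = 0.0127). The split depended on the scale: with library totals alone 0 genes were higher and 7 were lower, and ACACB was then 0.26 (edgeR adjusted p = 0.117). With cells under 2000 UMIs left out DGAT1 (edgeR adjusted p = 0.0654) and FASN (edgeR adjusted p = 0.0669) were no longer called. FASN also lost its call without the filter on low counts (edgeR adjusted p = 0.0829), and without library 1 its difference was -0.25.

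**Figure D3:**
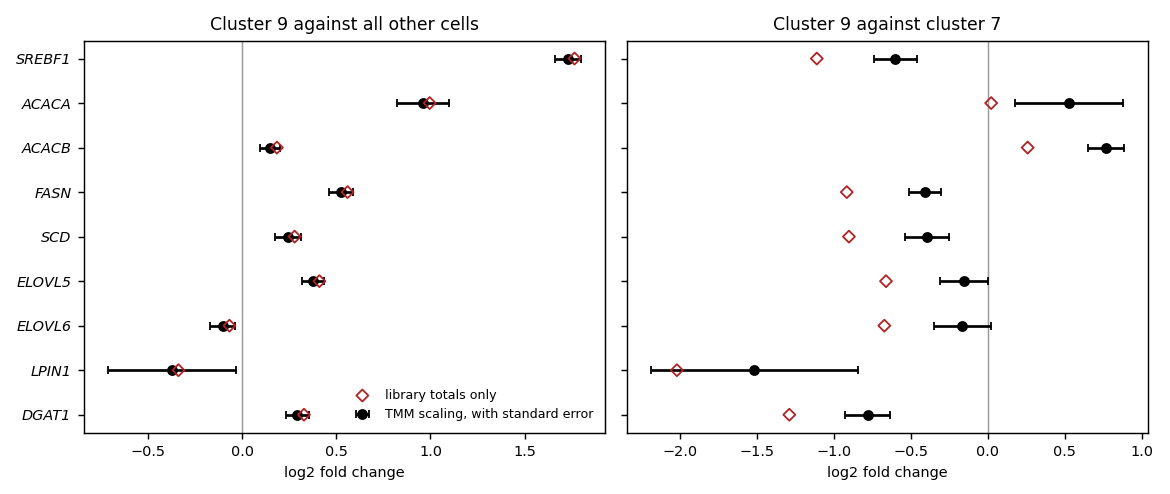
Log2 fold change of each gene in cluster 9 against all other cells (left) and against cluster 7 (right); black points with bars are estimates with standard errors under trimmed-mean scaling, and open diamonds are estimates with library totals alone. Both scalings nearly coincide on the left, and on the right all diamonds lie to the left of the points.

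Clusters 6 and 11 had the highest ACACB levels and also the highest sums of the S phase markers, 9.62 and 9.86 per 10000. The S phase sums were 1.30 to 7.50 in the other clusters, which did not share this pairing. Cluster 5, next for ACACB at 1.04, had a lower S phase sum than clusters 2 and 4. In clusters 2 and 4 ACACB was called lower than in all other cells, at log2 fold changes of -0.51 and -0.64. The part of S phase in the results of clusters 6 and 11 was not tested. In cluster 11, 6 of 9 genes were called, beside 26.5% of all genes, and all 6 were higher. ACACB was higher by a log2 fold change of 1.04 ± 0.049 (edgeR adjusted p = 9.68e-05) and ELOVL6 by 0.99 ± 0.056 (edgeR adjusted p = 0.000167). FASN (0.61 ± 0.050), SCD (0.49 ± 0.056), ELOVL5 (0.33 ± 0.086, and 0.18 without library 1) and LPIN1 (1.10 ± 0.28) were also higher on the log2 scale. DESeq2 did not call LPIN1 (DESeq2 adjusted p = 0.0877), and ELOVL5 was not called without the filter on low counts (edgeR adjusted p = 0.0692). SREBF1 was not called in cluster 11, where its level was 0.114 and 0.108, and ACACA, at 0.44, was called with the library as a block (edgeR adjusted p = 0.0428).

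In cluster 6, 4 of 9 genes were called, beside 20.1% of all genes, again all higher. ACACB had its largest log2 fold change there, 1.30 ± 0.058 (edgeR adjusted p = 0.000449), followed by SCD at 0.55 ± 0.049, FASN at 0.49 ± 0.044 and ELOVL6 at 0.44 ± 0.056. Possible doublets made up 18.7% of cluster 6, the largest share of any cluster, and without them the ACACB log2 fold change was 1.44. With the library as a block SREBF1, at -0.27 (edgeR adjusted p = 0.0141), and DGAT1, at -0.22 (edgeR adjusted p = 0.0105), were lower in cluster 6. In cluster 5, 3 of 9 genes were called, beside 24.1% of all genes: ACACB was higher by 0.81 ± 0.047, ELOVL5 was higher by 0.23 ± 0.058 and SCD was lower, at -0.40 ± 0.062, all log2 fold changes. ELOVL5 lost its call with library totals, DESeq2, no filter or no doublets (adjusted p up to 0.137), and FASN, at -0.16, was called with the library as a block (edgeR adjusted p = 0.00343).

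Cluster 12 held the myocyte markers and one of the lowest summed levels of the 9 genes, 1.91 ± 0.015 per 10000, not separated from the 1.92 ± 0.016 of cluster 8 and compared with 5.01 ± 0.16 in cluster 11, the highest deep cluster, and 6.44 ± 0.32 in cluster 7. Against all other cells 7 of 9 genes were called, beside 54.3% of all genes, 6 lower and 1 higher. SREBF1 was lower by a log2 fold change of -1.44 ± 0.15 (edgeR adjusted p = 0.000361), ELOVL5 by -0.97 ± 0.084 (edgeR adjusted p = 0.000162), ACACB by -0.95 ± 0.12 (edgeR adjusted p = 0.000952) and FASN by -0.70 ± 0.074 (edgeR adjusted p = 0.000395). ELOVL6 was lower by -0.63 ± 0.076 and ACACA by -0.98 ± 0.29, the latter between -0.54 without library 1 and -1.60 without library 2, and not called by DESeq2 (DESeq2 adjusted p = 0.0531). SCD was the exception, higher by 0.30 ± 0.072 (edgeR adjusted p = 0.0123), but with library totals alone the difference was 0.12 and was not called (edgeR adjusted p = 0.128).

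Cluster 12 was also set against cluster 3, in which myocyte markers summed to 8.58 per 10000. Of the 8 genes tested, 4 were lower in cluster 12, beside 15.6% of all genes, and 0 were higher, beside 18.2%, with 0 higher at an unadjusted p under 0.05 in edgeR and 0 called higher in DESeq2. FASN was 0.491 and 0.446 in cluster 12 and 0.898 and 0.892 in cluster 3, a log2 fold change of -0.84 ± 0.075 (edgeR adjusted p = 0.000124). ELOVL6 was lower by -0.62 ± 0.078 (edgeR adjusted p = 0.000671), ELOVL5 by -0.62 ± 0.11 (edgeR adjusted p = 0.00363) and ACACA by -1.15 ± 0.32 (edgeR adjusted p = 0.0272) on the log2 scale. ACACA rested on 21 UMIs in cluster 12, moved from -0.77 without library 1 to -1.72 without library 2 and was not called by DESeq2 (DESeq2 adjusted p = 0.165). SREBF1 had a log2 fold change of -0.68 ± 0.23 (edgeR adjusted p = 0.0548) and was called under 4 of the alternatives, the library as a block among them (edgeR adjusted p = 0.0161). SCD was 0.551 and 0.519 against 0.641 and 0.615, a log2 fold change of -0.13 ± 0.074 (edgeR adjusted p = 0.203).

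Cluster 3 was compared with cluster 1, the largest cluster, which had fewer myocyte transcripts at 1.40 per 10000. The test called 4 of 9 genes, beside 40.2% of all genes, each higher in cluster 3. SCD was 0.641 and 0.615 against 0.319 and 0.320, a log2 fold change of 1.01 ± 0.061 (edgeR adjusted p = 4.12e-05). ELOVL6 was higher by 0.74 ± 0.060 (edgeR adjusted p = 0.000136), FASN by 0.65 ± 0.069 (edgeR adjusted p = 0.000439) and ACACA by 0.74 ± 0.18 (edgeR adjusted p = 0.0161); DESeq2 did not call ACACA (DESeq2 adjusted p = 0.161). SREBF1 did not pass the test here, with 0.0608 and 0.0524 against 0.0687 and 0.0596.

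Cluster 2 differed from cluster 1 in cell cycle markers, with a G2/M sum of 17.2 against 0.846 per 10000, the part of which in the result was not tested. In this comparison 5 of 9 genes were called, beside 41.9% of all genes. ELOVL6 was 0.639 and 0.567 in cluster 2 against 0.306 and 0.312 in cluster 1, a log2 fold change of 0.91 ± 0.075 (edgeR adjusted p = 0.000105). SCD (0.56 ± 0.073), FASN (0.46 ± 0.072) and ACACB (0.35 ± 0.056) were also higher on the log2 scale. LPIN1 was lower by -1.43 ± 0.39 (edgeR adjusted p = 0.0227) on 16 and 36 UMIs, and DESeq2 did not call it (DESeq2 adjusted p = 0.184). ELOVL5, at 0.22 ± 0.085, was not called (edgeR adjusted p = 0.0729) except under alternatives such as the library as a block (edgeR adjusted p = 0.00445).

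Among the remaining clusters, clusters 1, 4 and 8 had mostly lower levels. In cluster 1, 7 of 9 genes were called, beside 33.4% of all genes, and each was lower, from ELOVL5 at -0.36 ± 0.051 to ACACB at -0.85 ± 0.048 on the log2 scale. DESeq2 did not call ACACA (DESeq2 adjusted p = 0.123), and LPIN1, at 0.76, was called with the library as a block (edgeR adjusted p = 0.0396). In cluster 8, 5 of 9 were called, beside 46.0%: SCD was lower by -1.30 ± 0.060 (edgeR adjusted p = 6.71e-05), FASN by -0.98 ± 0.049, ACACB by -0.81 ± 0.063 and ELOVL6 by -0.65 ± 0.062, whereas DGAT1 was higher by 0.35 ± 0.063. Cluster 8 also had the highest level of DCN, at 14.96 per 10000. In cluster 4, with the highest G2/M sum of 18.1, 6 of 9 were called, beside 31.6%, with SCD at -0.75 ± 0.083, ACACB at -0.64 ± 0.050, FASN at -0.61 ± 0.074, SREBF1 at -0.35 ± 0.077, LPIN1 at -1.13 ± 0.27 and DGAT1 at 0.23 ± 0.054; DESeq2 called none of the last 3. ELOVL6, at -0.09, was called there with the library as a block (edgeR adjusted p = 0.0475).

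In cluster 3, 6 of 9 genes were called against all other cells, beside 49.9%: SCD (0.54 ± 0.056) and FASN (0.23 ± 0.046) were higher and ACACB (-0.93 ± 0.061), SREBF1 (-0.75 ± 0.11), ELOVL5 (-0.31 ± 0.052) and DGAT1 (-0.26 ± 0.074) were lower. FASN lost its call with library totals (edgeR adjusted p = 0.0767) and DGAT1 in DESeq2 (DESeq2 adjusted p = 0.122). In cluster 2, 3 of 9 were called, beside 31.8%, with SREBF1 at -0.70 ± 0.089, ACACB at -0.51 ± 0.041 and DGAT1 at -0.25 ± 0.067, the last lost under 6 of the alternatives and at -0.15 without library 1. The block added ELOVL6 at 0.21 (edgeR adjusted p = 0.000314) and ELOVL5 at -0.15 (edgeR adjusted p = 0.0229). In cluster 10, 4 of 9 were called, beside 38.6%, with ELOVL5 at 0.66 ± 0.087, SCD at 0.62 ± 0.071, FASN at 0.50 ± 0.062 and SREBF1 at 0.42 ± 0.12, the last not called by DESeq2 (DESeq2 adjusted p = 0.0572), and the block added ELOVL6 at -0.18 (edgeR adjusted p = 0.0497).

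The other shallow clusters gave few calls. In cluster 13, 3 of 9 genes were called, beside 17.3%, with SCD at 0.84 ± 0.17, ELOVL5 at 0.70 ± 0.16 and FASN at 0.63 ± 0.14. Without cells under 2000 UMIs these were 0.70, 0.37 and 0.23 and none was called (edgeR adjusted p = 0.0698, 0.671 and 0.646). Without library 1 the SCD value was 0.50 and that of FASN 0.35. SREBF1 in cluster 13, at 0.92 ± 0.24 on the log2 scale, was not called (edgeR adjusted p = 0.0560). In cluster 14 edgeR called 0 of 9 genes, beside 7.79%, with 3 at an unadjusted p under 0.05 and 0 in DESeq2, and the block added FASN at -0.54 (edgeR adjusted p = 0.0152). In cluster 15 it called 0 of 9, beside 0.273%, with 0 at an unadjusted p under 0.05 and 0 in DESeq2. Cluster 15 held only 72 UMIs of all 9 genes together, so the lack of calls does not show that levels were equal. Over all genes 35 of 12827 were called there, and the part of depth in this was not tested.

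At the level of single cells, depth was equalised by thinning each cell to 5000 UMIs, with shallower cells left out. This kept all 1080 cells of cluster 9, but 12 of 1298 in cluster 7, 78 of 446 in cluster 14 and none in clusters 13 and 15. Of the deep clusters, cluster 10 lost most, with 558 of 1010 cells kept, so its thinned values describe only its deeper cells. The binomial intervals of these shares cover counting error only, because cells are not replicates. A FASN UMI was then found in 45.4% of cluster 9 cells (42.4 to 48.4%, exact 95% binomial interval), compared with 87.8% before thinning. The share was 47.4% (44.0 to 50.8%) in cluster 11, 49.1% (44.9 to 53.3%) in cluster 10 and 19.6% (16.5 to 22.9%) in cluster 12. SREBF1 was found in 12.1% of cluster 9 cells (10.2 to 14.2%), compared with 44.1% before thinning and with 1.31% (0.565 to 2.56%) in cluster 12 to 6.52% (4.95 to 8.40%) in cluster 11 among the other deep clusters. No cluster is of a type known to lack these genes. Cluster 12, the lowest for SREBF1, had a median of 19113 UMIs per cell before thinning and cluster 9 had 23011.

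ACACB was found after thinning in 49.4% of cells of cluster 6 (46.9 to 51.9%), 48.7% of cluster 11 (45.3 to 52.1%), 37.0% of cluster 5 (34.7 to 39.4%) and 30.2% of cluster 9 (27.5 to 33.0%). ELOVL6 reached 37.1% in cluster 11 (33.8 to 40.4%) and 20.7% in cluster 9 (18.4 to 23.3%). The 9 genes together gave a median of 2 UMIs per thinned cell in clusters 6, 9, 10 and 11 and of 1 in clusters 1 to 5, 8 and 12. The share of cells with none of the 9 was 11.02% in cluster 11, 17.3% in cluster 9 and 42.3% in cluster 12.

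**Figure D4:**
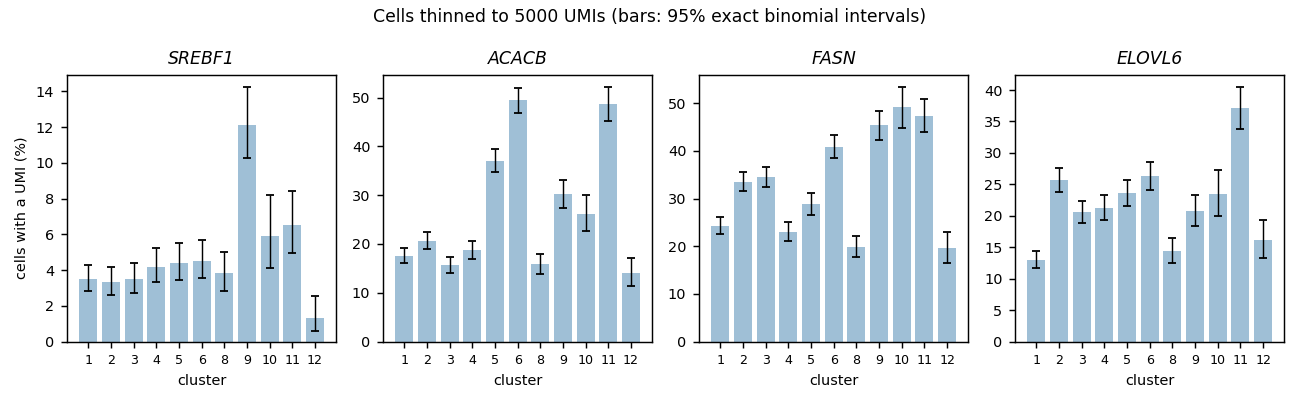
Share of cells with at least 1 UMI (percent, vertical axis from 0) of SREBF1, ACACB, FASN and ELOVL6 in the 11 deep clusters after thinning each cell to 5000 UMIs; lines are exact 95% binomial intervals. The SREBF1 bar of cluster 9 (12.1%) is above all others, while for ACACB clusters 6 and 11 are highest. The bars of cluster 10 cover only 558 of its 1010 cells. All intervals cover counting error only.

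Over the 15 clusters, FASN and SCD had the most similar pair of patterns in the set. The smaller of their Pearson correlations of log2 level (pseudocount 0.05 UMIs per 10000) in the 2 libraries was 0.847, and 0.814 over the 11 deep clusters. FASN and SREBF1 followed at 0.701 over the 15 clusters. Over the 11 deep clusters that pair had 0.569, below ACACB and ELOVL6 at 0.784 and FASN and ELOVL6 at 0.764, among other pairs. ELOVL6 and DGAT1 had -0.333 in library 1 and 0.511 in library 2, opposite signs. The points are clusters that share libraries and differ in depth, so these values are descriptions. Among 7758 genes with at least 2000 UMIs, those most like FASN were SCARB1, the high-density lipoprotein receptor, at 0.890, the mitochondrial ATPase ATAD3A at 0.884 and the cytokine CSF1 at 0.875. Most like SCD were CLUH (0.890), STARD7 (0.873) and RCC1L (0.869). Most like SREBF1 were the matrix and stromal genes THBS2 (0.913), CD248 (0.907) and COL12A1 (0.901).

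The other genes of the pathway did not share one direction in cluster 9. The counts below stand beside 25.3% of all genes tested that were higher, 27.7% that were lower and a median log2 fold change of -0.04. Of 25 genes tested for substrate supply, elongation, desaturation and activation, 7 were higher, close to the share over all genes, and 11 lower, with a median log2 fold change of -0.17. ACSL5, an acyl-CoA synthetase that activates fatty acids, was 0.719 in both libraries of cluster 9 against 0.0882 and 0.0868 elsewhere, a log2 fold change of 3.00 ± 0.055 (edgeR adjusted p = 1.26e-06). Its relative ACSL3 was lower, at -0.90 ± 0.081, as was the elongation enzyme HACD1, at -1.13 ± 0.21. Of 16 genes of glycerolipid assembly, 7 were higher and 2 lower, with a median of 0.08. The lipid phosphatase PLPP3 was higher by 1.48 ± 0.081 and its relative PLPP2 lower by -1.003 ± 0.096, and the acyltransferase AGPAT4 was lower by -0.88 ± 0.075.

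Of 23 genes that control lipogenic transcription, 5 were higher and 6 lower in cluster 9, both near the shares of 25.3% and 27.7% over all genes, with a median log2 fold change of -0.11. SREBF2, the relative of SREBF1 that mainly drives cholesterol synthesis, was 0.378 and 0.380 in cluster 9 against 0.776 and 0.794 elsewhere, a log2 fold change of -1.09 ± 0.049 (edgeR adjusted p = 1.47e-05). RXRA was lower by -0.54 ± 0.087 and INSIG1, which holds the SREBP proteins in the endoplasmic reticulum, by -0.45 ± 0.069. SREBF1 and SREBF2 thus differed from the other cells in opposite directions.

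Cholesterol genes, taken for comparison, were mostly lower in cluster 9, where 17 of 21 were lower, beside 27.7% of all genes, and 1 was higher, with a median of -0.51. TM7SF2 was lower by -2.82 ± 0.12, IDI1 by -1.38 ± 0.080 and CYP51A1 by -0.96 ± 0.055 on the log2 scale. The same list had 19 of 21 higher in cluster 6, beside 10.6% of all genes, and 17 in cluster 11, beside 12.8%. In each of these clusters 1 was lower, and the medians were 0.51 and 0.28. Whether these counts went with ACACB was not tested, and the clusters differed. Cluster 3, low in ACACB, had 17 higher and 1 lower, with a median of 0.60, beside 3205 of 13082 genes higher and 3318 lower. Cluster 5, high in ACACB, had 0 higher and 5 lower, with a median of -0.10, beside 1584 of 13153 genes higher and 1584 lower. In cluster 8, low in ACACB, FASN and SCD, 19 were lower, beside 23.5% of all genes, with a median of -0.54. Cluster 4, also low in ACACB, had 1 higher and 16 lower, with a median of -0.52, beside 2013 of 13115 genes lower. Clusters 1, 2, 7 and 12, with ACACB called lower, had 2, 5, 5 and 6 higher and 7, 7, 8 and 8 lower. Those counts stand beside 33.4%, 31.8%, 44.7% and 54.3% of all genes called in either direction. Of 7 adipogenic regulators, 4 were higher and 2 lower in cluster 9, beside 25.3% and 27.7% of all genes, with a median of 0.59. PPARG was higher by 3.85 ± 0.084 (edgeR adjusted p = 1.56e-06) and ZNF423, a preadipocyte factor, by 1.37 ± 0.11, while KLF5 was lower by -2.33 ± 0.083.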

How the data were processed

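Both single-cell libraries of the same cultured cells were analysed. Per the labels and the study's methods, the authors aligned reads to ARS-UCD1.2 and counted UMIs with Cell Ranger 3.0.2, made read depth equal between libraries and clustered the cells; the deposited matrix holds raw UMI counts for 19096 cells, and the libraries share 27 barcodes. The authors also deposited average UMIs per cluster, scaled to the median total, and fold changes with p-values, which were not used. These averages convert to whole UMI sums, from which each cell's cluster was deduced: all 19096 cells were placed and 0 of 252240 gene and cluster sums differed. UMIs were summed per cluster and library and tested with edgeR 4.0.16 (quasi-likelihood, TMM, filterByExpr, Benjamini-Hochberg) in R 4.3.3; DESeq2 1.42.0 was an alternative. In simulated data with 200 genes changed 3-fold, 81.0% were recovered for cluster 9 against the rest over 12995 genes, with 9 false calls. The share was 74.5% for cluster 9 against cluster 7 and 89.5% for cluster 12 against cluster 3, with 4 and 8 false calls. Changes smaller than 3-fold, such as that of FASN in cluster 9, were not simulated. The library number pairs the sums, since both sums of a library come from 1 preparation: library ratios of a cluster and of the other cells, among genes that reached 20 UMIs in every sum, correlated at 0.167 to 0.669 (median 0.565). The main fit did not use this pairing, and an alternative fitted the library as a block. Doublets were scored with Scrublet in scanpy 1.11.5, and the top 8% per library were left out in an alternative. The genes and lists were chosen with earlier results of these data known. List genes named are the 3 called with the largest fold change in cluster 9 at a level of 0.1 UMIs per 10000 or more, and the 3 genes most like FASN, SCD and SREBF1.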

Additional observations from a re-analysis of the deposited data

How the results depend on the processing

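With the library as a block, 1 gene of the set, ELOVL6, was called lower in cluster 9 against the rest, compared with 0 without it. The paired fit added 14 calls of the set in all, each given beside its cluster, and changed no other call. With library totals only, 0 genes were higher and 7 lower in cluster 9 than in cluster 7, compared with 1 and 3, and the DGAT1 log2 fold change between clusters 12 and 3 went from 0.08 to -0.0144, neither called. The cause was not tested. Between clusters 9 and 7, DGAT1 and FASN also lost their calls without cells under 2000 UMIs, and FASN without the filter on low counts. The counts of the comparisons not named here stayed within 1.5 times under every alternative. In all, 58 (DESeq2) to 77 (library as a block) of 135 pairs of gene and cluster were called. Of 94 log2 fold changes, DESeq2 kept direction and call for 80, size factors for 91, no filter for 88 and the block for 91. Library totals only also kept 80 of the 94, with 6 weaker, 7 stronger and 1 reversed. Of 93, leaving out doublets kept 88 and leaving out cells under 2000 UMIs kept 87. Cluster 15 could not be fitted without cells under 2000 UMIs. Leaving out 1 library gave fold changes with no test. Depth limits clusters 7, 13, 14 and 15 and the genes LPIN1 and ACACA; 2 libraries of the same cells show no spread between animals.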
